A study of Homo sapiens with 24 samples.

Results

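The genes described here are 35 genes of G2 phase and mitosis, the G2/M genes, named by their symbols and read on Illumina expression beadchips in 4 human Ewing sarcoma cell lines. They cover the cyclin-CDK1 engine, the mitotic kinases, the anaphase-promoting complex (APC/C), mitotic kinesins, spindle proteins, cytokinesis and the transcription factor of the programme. Their symbols matched 53 of the 47323 probes on the chip, and 34 of the 35 genes (48 probes) passed the filter on dim probes, out of 10882 genes that did so. The lines were SKNMC, TC32, TC71 and RDES (written RD-ES in the design text), each a tumour-derived line grown in culture. One arm of each line received pladienolide B (PlaB) at 5 nM, an inhibitor of SF3b that blocks pre-mRNA splicing, and the other 0.1% DMSO vehicle, which the treatment protocol also calls untreated. Both lasted 24 h. The 24 arrays form 8 groups of 3. Replicates are numbered in the labels, but whether they were grown as separate cultures is left unsaid. A p-value here therefore weighs a difference only against the spread within groups, pooled over the 8 groups, of samples that may be technical repeats.

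Cyclin A and cyclin B bind CDK1, and the CDC25 phosphatases switch the complex on at the end of G2. The Aurora and Polo kinases and the kinesins then build the spindle, and CDC20 with the APC/C ends mitosis by marking securin and the cyclins for destruction. Many of these genes are transcribed together late in the cell cycle, through promoters that hold a cell cycle homology region (CHR) bound by the DREAM complex in quiescent cells and by MYBL2 and FOXM1 in dividing cells. In bulk RNA, fewer cells in G2 or mitosis and less RNA of a gene per cell cannot be told apart.

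The lines carried their label: 7 of 9 Ewing sarcoma markers, among them CD99, NKX2-2 and STEAP1, were detected on all 24 arrays, while of the genes of other cell types the endothelial VWF and CDH5 were detected on 0 arrays and the blood genes PTPRC and CD3E and epithelial CDH1 on 1 each. Other genes of those lists were detected on many arrays: CD14 and LCP1 on 22, CD79A on 21 and CORO1A on 9 (blood), KRT18 on 20 and KRT8 on 10 (epithelial) and ESAM on 11 (endothelial). The 9 Ewing sarcoma genes summed to a log2 level of 67.42 to 71.17 over the PlaB groups. Over the vehicle groups their sum was higher, from 72.73 to 77.1. The summed log2 level ran from 28.44 to 30.63 over the PlaB groups and from 27.38 to 30.45 over the vehicle groups for the 6 blood genes, from 26.13 to 27.79 with PlaB and from 26.28 to 27.07 with vehicle for the 6 epithelial genes, and from 21.2 to 22.47 with PlaB and from 20.97 to 21.45 with vehicle for the 5 endothelial genes. Of 7 fibroblast and mesenchymal genes, THY1 was detected on all 24. The others were detected on fewer arrays, COL3A1 on 23, COL1A1 on 20, PDGFRB on 19, DCN on 17, LUM on 13 and COL1A2 on 10. The summed log2 level of those 7 genes ran from 33.55 to 41.48 over the PlaB groups and from 35.4 to 49.01 over the vehicle groups, and the part of these levels in the results was not tested. Arrays detected 13821 to 18736 probes. The PlaB arrays detected fewer than the vehicle arrays, with 14654 ± 726 against 16627 ± 169 in SKNMC, 14842 ± 269 against 16871 ± 478 in TC32, 16427 ± 570 against 17755 ± 920 in TC71 and 16078 ± 267 against 17402 ± 318 in RDES (SD, n = 3), and the part of this in the results below was not tested.

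With PlaB, G2/M genes moved both ways in every line, with the most rises in SKNMC and the most falls in RDES. In SKNMC 25 of the 34 measured genes rose and 5 fell, beside 24.9% of all tested probes that rose and 28% that fell (limma, adjusted p under 0.05). In TC32 13 rose and 9 fell, beside 19.3% and 21.6% of all probes. In TC71 15 rose and 7 fell, beside 21.4% and 22.2%. In RDES 7 rose, beside 19.5% of all probes, and 15 fell, beside 20.2%. The genes that rose in RDES were 20.6% of the 34 and those that fell in TC71 also 20.6%, close to the shares of all probes, and those that fell in TC32 were 26.5%. In all 4 lines 6 genes rose (17.6%, beside 8.58% of all probes) and 4 fell (11.8%, beside 8.52%).

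The median log2 fold change of the 34 genes, PlaB over vehicle, was 0.58 in SKNMC, 0.04 in TC32, 0.16 in TC71 and -0.20 in RDES, while the median of all tested probes was -0.02, -0.02, 0.00 and 0.00. With each array centred on its median instead of quantile-normalized, the gene medians were 0.44, -0.27, 0.02 and -0.31, so that the sign in TC32 turned; that setting moved the median of all probes in the mean of the lines by -0.12 and called 2914 probes up and 8345 down there, against 5432 and 6090 with quantile normalization. Centring on the probes detected on every array gave gene medians of 0.75, 0.04, 0.16 and -0.22, with 6999 probes up and 5175 down. The counts in TC32 depended most on this choice: 2 rose and 15 fell under median centring, and 8 rose under centring on detected probes. Leaving out 1 array moved the gene median of TC71 to 0.02 (without its second PlaB array) or 0.26 (without its first), and that of TC32 to at most 0.09 (without its second vehicle array; 0.07 without the first or the third vehicle or the second PlaB array). In RDES the count that rose was 4 without the first vehicle array and 4 without the second PlaB array.

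**Figure D1:**
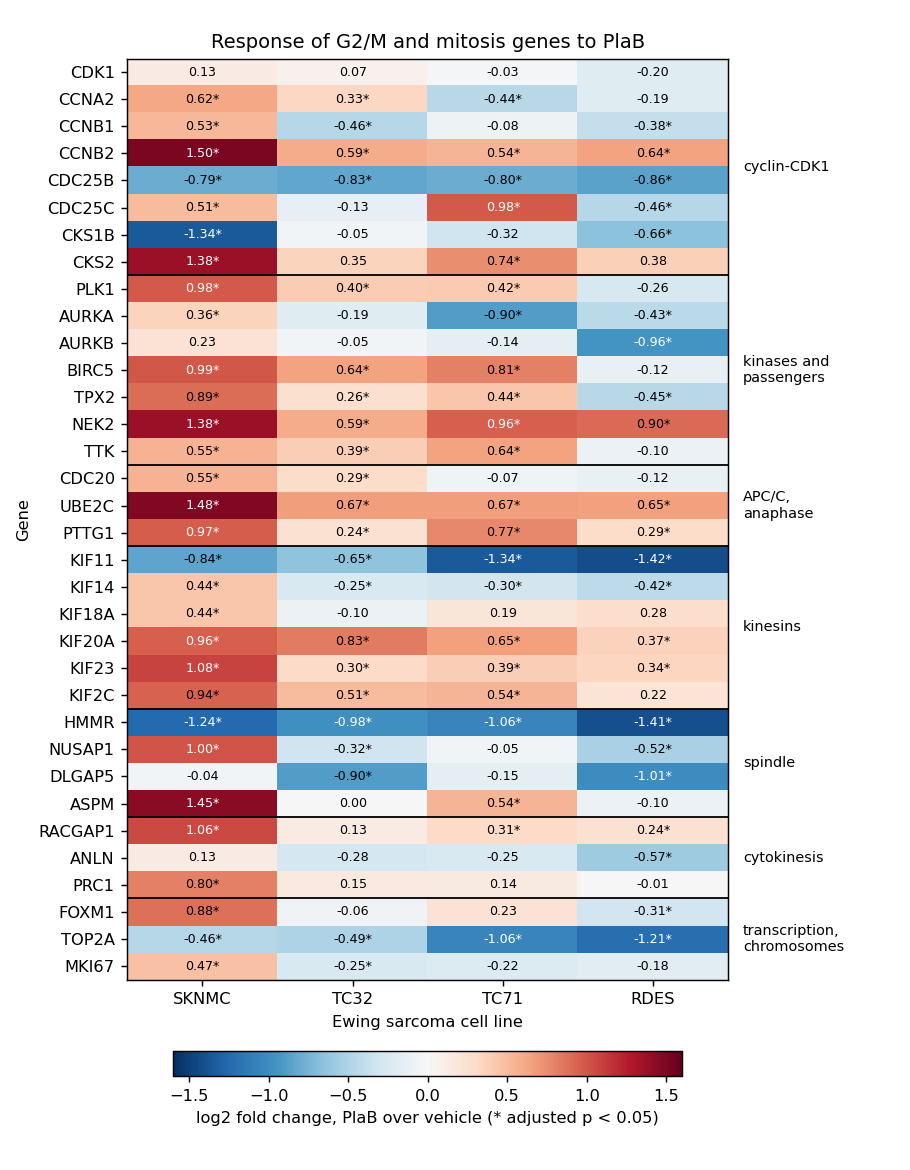
Log2 fold change, PlaB over vehicle, of the 34 measured G2/M genes (down the page, by role) in the 4 lines (columns), from the limma fit; red is higher with PlaB, blue is lower and a star marks an adjusted p under 0.05. The SKNMC column is mostly red and the RDES column holds the most blue, with CCNB2, NEK2, UBE2C, PTTG1, KIF20A and KIF23 red and CDC25B, KIF11, HMMR and TOP2A blue in all 4 columns.

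Whether the response differed between lines was tested with a moderated F-test. It was called for 30 of the 34 genes, beside 42.4% of all tested probes, and the 4 not called were CDK1, CDC25B, KIF18A and HMMR. Between pairs of lines, the response in SKNMC was above that in RDES for 29 genes and below it for 1 (all probes 10.9% and 12.9%). It was above that in TC32 for 20 genes and below it for 1 (all probes 13% and 14.3%), and above that in TC71 for 20 and below it for 1 (10.9% and 12.6%). The gene below was CKS1B in each of these pairs, and its difference to RDES lost its call without 1 array in 7 of the 24 fits that left an array out. TC71 was above RDES for 10 genes and below it for 0 (4.85% and 5.72%), TC32 above RDES for 7 and below it for 0 (5.56% and 5.75%), and TC32 above TC71 for 4 and below it for 3 (8.52% and 8%). SKNMC had the highest response of the 4 lines for 29 of the 34 genes and RDES the lowest for 22. Over all tested probes these shares were 28.6% and 21.1%.

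**Figure D2:**
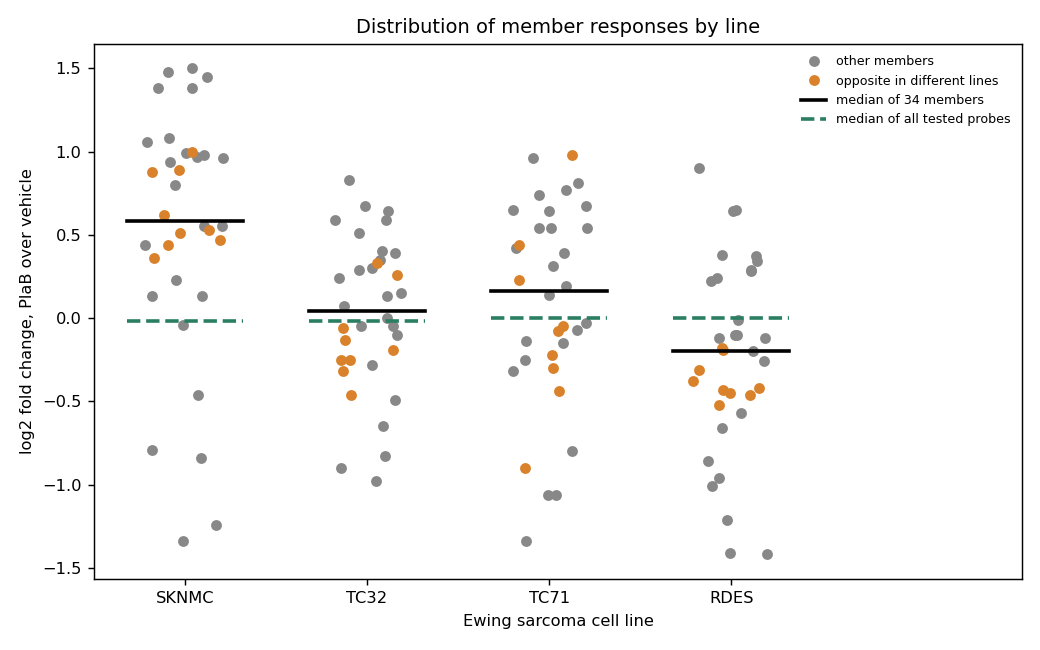
Log2 fold change, PlaB over vehicle (y axis), of each of the 34 measured genes in each line (x axis); orange points are the 9 genes called up in one line and down in another, black bars the median of the 34 genes and dashed green bars the median of all tested probes. The black bar stands at 0.58 in SKNMC and at -0.20 in RDES, while the green bar stays near 0.

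The cyclin-CDK1 engine held 8 genes, of which 5 rose and 2 fell in SKNMC, 2 rose and 2 fell in TC32, 3 rose and 2 fell in TC71, and 1 rose and 4 fell in RDES. The genes that rose or fell in TC32, and those that fell in SKNMC and TC71, were each 25% of the 8, near the shares of all probes. CDK1, the kinase itself, was called in none of the lines, with log2 fold changes of 0.13 ± 0.17 in SKNMC, 0.07 ± 0.17 in TC32, -0.03 ± 0.17 in TC71 and -0.20 ± 0.17 in RDES. Its PlaB and vehicle arrays overlapped in every line. The CDK1 probe was dim, with intensities of 80 to 140 before normalization, and a second probe did not pass the filter. Errors of fold changes are standard errors, and levels are normalized log2 intensities, which are compared only within a gene.

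CCNA2, the A-type cyclin of S and G2 phase, rose in SKNMC and TC32 and fell in TC71. In SKNMC, CCNA2 read 8.78, 8.97 and 8.82 with PlaB and 8.13, 8.27 and 8.31 with vehicle, a log2 fold change of 0.62 ± 0.10 (adjusted p = 3.3e-06). In TC32, CCNA2 read 8.82, 8.70 and 8.90 with PlaB and 8.54, 8.48 and 8.40 with vehicle, a change of 0.33 ± 0.10 (adjusted p = 0.0068), which was -0.02 under median centring. All 3 PlaB arrays lay above all 3 vehicle arrays in both lines. In TC71, CCNA2 read 8.57, 8.66 and 8.48 with PlaB, against 9.03, 8.97 and 9.04 with vehicle, a change of -0.44 ± 0.10 (adjusted p = 0.00043). In RDES, CCNA2 read 8.24, 8.24 and 8.43 with PlaB, against 8.50, 8.50 and 8.50 with vehicle, a change of -0.19 ± 0.10 (adjusted p = 0.12). The PlaB arrays were the lower ones in TC71 and RDES, without overlap, though RDES missed the threshold. The response differed between lines (F-test adjusted p = 1.4e-06).

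CCNB1, the B-type cyclin that carries cells into mitosis, was dim, and its probe was detected on 2 of the 3 TC32 arrays with PlaB and on all other arrays. In SKNMC, CCNB1 read 5.38, 5.44 and 5.23 with PlaB and 4.88, 4.59 and 4.99 with vehicle, a change of 0.53 ± 0.15 (adjusted p = 0.0033). In TC32, CCNB1 read 4.66, 4.47 and 4.74 with PlaB and 5.08, 5.31 and 4.86 with vehicle, a change of -0.46 ± 0.15 (adjusted p = 0.014). The treatments did not overlap in either line, and PlaB was the higher in SKNMC and the lower in TC32. In TC71, CCNB1 read 4.43, 4.43 and 4.85 with PlaB and 4.78, 4.62 and 4.56 with vehicle, a change of -0.08 ± 0.15 (adjusted p = 0.71). In RDES, CCNB1 read 5.10, 4.48 and 4.58 with PlaB and 5.10, 5.29 and 4.92 with vehicle, a change of -0.38 ± 0.15 (adjusted p = 0.041). In both of these lines the arrays overlapped, and in RDES 1 PlaB array stood among the vehicle arrays. Leaving out 1 array of the line moved the adjusted p to at most 0.1 in TC32 (without the second vehicle or the second PlaB array) and to at most 0.22 in RDES (without any array but the third vehicle or the first PlaB array). Under median centring the SKNMC change was 0.21 (adjusted p = 0.33), and with no filter on dim probes the falls in TC32 (0.051) and RDES (0.13) were not called. The F-test gave an adjusted p of 0.0013.

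CCNB2, the other main B-type cyclin, rose in all 4 lines. In SKNMC, CCNB2 read 9.75, 9.60 and 9.94 with PlaB and 8.18, 8.35 and 8.26 with vehicle, a change of 1.50 ± 0.11 (adjusted p = 1.2e-12), or 2.83-fold. In TC32, CCNB2 read 9.42, 9.57 and 9.48 with PlaB and 8.96, 8.74 and 8.99 with vehicle, a change of 0.59 ± 0.11 (adjusted p = 5.7e-05). In TC71, CCNB2 read 8.99, 8.77 and 8.92 with PlaB and 8.33, 8.51 and 8.22 with vehicle, a change of 0.54 ± 0.11 (adjusted p = 0.00017). No PlaB array overlapped a vehicle array in these lines. In RDES, CCNB2 read 9.19, 9.31 and 9.16 with PlaB and 8.66, 8.65 and 8.44 with vehicle, a change of 0.64 ± 0.11 (adjusted p = 2.3e-05), again without overlap. The TC32 rise was not called under median centring (0.22, adjusted p = 0.2). The SKNMC response exceeded that of RDES by 0.86 ± 0.16 (adjusted p = 0.00014).

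CDC25C, a phosphatase that activates cyclin B-CDK1, moved most in TC71. In SKNMC, CDC25C read 6.32, 6.12 and 6.30 with PlaB and 5.87, 5.52 and 5.83 with vehicle, a change of 0.51 ± 0.13 (adjusted p = 0.001). In TC71, CDC25C read 7.10, 6.90 and 6.88 with PlaB and 5.79, 6.23 and 5.92 with vehicle, a change of 0.98 ± 0.13 (adjusted p = 1.6e-07) or 1.97-fold. The PlaB arrays were above the vehicle arrays in both lines, without overlap. In TC32, CDC25C read 5.99, 6.07 and 5.93 with PlaB, against 6.11, 6.10 and 6.17 with vehicle, a change of -0.13 ± 0.13 (adjusted p = 0.43). In RDES, CDC25C read 5.42, 5.27 and 5.11 with PlaB, against 5.64, 5.98 and 5.56 with vehicle, a change of -0.46 ± 0.13 (adjusted p = 0.0036). PlaB was the lower treatment in both of these lines, without overlap. The TC71 response exceeded that of RDES by 1.44 ± 0.18 (adjusted p = 1.6e-06).

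CDC25C has 3 tested probes that disagree, and the values above come from the brightest, which the annotation ties to another transcript record than the other 2. The dimmest probe fell in every line, by 0.74, 0.93, 0.89 and 1.03 in SKNMC, TC32, TC71 and RDES. The remaining probe changed by 0.19 in SKNMC and -0.22 in TC32, neither called, rose by 0.67 in TC71 and fell by 0.58 in RDES. The rise in SKNMC was thus seen on 1 of 3 probes, and on the mean of the 3 probes the change in SKNMC was -0.01. Under median centring the brightest probe gave 0.10 in SKNMC (adjusted p = 0.6) and a called fall of 0.51 in TC32 (0.0022).

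CDC25B, a phosphatase that acts on CDK1 earlier than CDC25C, fell by almost the same amount in all 4 lines. In SKNMC, CDC25B read 8.65, 8.85 and 8.81 with PlaB and 9.48, 9.53 and 9.68 with vehicle, a change of -0.79 ± 0.12 (adjusted p = 1.3e-06). In TC32, CDC25B read 7.88, 8.07 and 8.10 with PlaB and 8.74, 8.90 and 8.91 with vehicle, a change of -0.83 ± 0.12 (adjusted p = 1.2e-06). In TC71, CDC25B read 8.01, 7.74 and 7.65 with PlaB and 8.47, 8.78 and 8.56 with vehicle, a change of -0.80 ± 0.12 (adjusted p = 1.8e-06). In these lines each PlaB array was lower than each vehicle array. In RDES, CDC25B read 8.02, 7.67 and 7.75 with PlaB and 8.52, 8.75 and 8.73 with vehicle, a change of -0.86 ± 0.12 (adjusted p = 8.2e-07), with no overlap. The responses spanned 0.06 from the smallest to the largest, and the F-test gave an adjusted p of 0.99.

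CKS1B and CKS2 encode the small proteins that dock CDK1 on its substrates, and the pair went opposite ways in SKNMC. In SKNMC, CKS1B read 8.68, 9.35 and 8.58 with PlaB, against 10.49, 10.23 and 9.92 with vehicle, a change of -1.34 ± 0.16 (adjusted p = 3e-08), or 2.53-fold lower. In SKNMC, CKS2 read 9.44, 9.58 and 9.48 with PlaB and 8.15, 8.27 and 7.94 with vehicle, a change of 1.38 ± 0.17 (adjusted p = 2.5e-08), or 2.6-fold higher. Neither gene's PlaB arrays overlapped its vehicle arrays there. In RDES, CKS1B read 10.20, 10.44 and 10.47 with PlaB, against 10.95, 11.07 and 11.06 with vehicle, a change of -0.66 ± 0.16 (adjusted p = 0.0015). In RDES, CKS2 read 8.44, 8.44 and 8.57 with PlaB and 8.22, 8.24 and 7.84 with vehicle, a change of 0.38 ± 0.17 (adjusted p = 0.068). The groups were again apart for both genes, but the change of CKS2 missed the threshold, which it passed without the second (adjusted p = 0.023) or the third (0.046) vehicle array of TC71.

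In TC32, CKS1B read 10.82, 10.51 and 10.66 with PlaB and 10.53, 10.73 and 10.89 with vehicle, a change of -0.05 ± 0.16 (adjusted p = 0.84). In TC71, CKS1B read 10.46, 10.56 and 10.13 with PlaB and 10.68, 10.54 and 10.89 with vehicle, a change of -0.32 ± 0.16 (adjusted p = 0.11). The treatments overlapped in both lines. In TC32, CKS2 read 8.91, 8.86 and 9.30 with PlaB and 8.84, 8.60 and 8.59 with vehicle, a change of 0.35 ± 0.17 (adjusted p = 0.094), with the PlaB arrays on top, and it was called without the second vehicle array of TC71 (0.036). In TC71, CKS2 read 9.13, 8.74 and 8.94 with PlaB and 8.04, 8.75 and 7.80 with vehicle, a change of 0.74 ± 0.17 (adjusted p = 0.00047), and the second vehicle array reached the PlaB values. CKS1B was the gene whose response was lowest in SKNMC, and its second probe also fell most there, by 1.07. That second probe was also called down in TC71, by 0.49 (adjusted p = 0.0061), unlike the first. The second CKS2 probe rose in all 4 lines, by 1.30, 0.84, 0.85 and 0.61 in SKNMC, TC32, TC71 and RDES.

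Of the 7 mitotic kinases and their partners, 6 rose and 0 fell in SKNMC (85.7% up, beside 24.9% of all probes). In TC32 5 rose and 0 fell and in TC71 5 rose and 1 fell (71.4% up, beside 19.3% and 21.4%), and in RDES 1 rose and 3 fell (14.3% and 42.9%, beside 19.5% and 20.2%). PLK1, the Polo kinase of mitotic entry and spindle assembly, rose by 0.98 ± 0.12 in SKNMC, 0.40 ± 0.12 in TC32 and 0.42 ± 0.12 in TC71. In RDES its change was -0.26 ± 0.12 (adjusted p = 0.088), with the PlaB arrays the lower ones without overlap. The PLK1 probe was dim, with intensities of 95 to 153 before normalization. BIRC5 (survivin, a chromosomal passenger protein) rose by 0.99 ± 0.13, 0.64 ± 0.13 and 0.81 ± 0.13 in SKNMC, TC32 and TC71, and TTK (the checkpoint kinase MPS1) by 0.55 ± 0.13, 0.39 ± 0.13 and 0.64 ± 0.13. In RDES neither was called, at -0.12 ± 0.13 for BIRC5 and -0.10 ± 0.13 for TTK, though without the second PlaB array of RDES the change of BIRC5 was -0.32 (adjusted p = 0.046). A dimmer second BIRC5 probe rose by 0.66, 0.37 and 0.45 in SKNMC, TC32 and TC71 and was at 0.11 in RDES (adjusted p = 0.57). The F-test did not call a difference between lines for that probe (adjusted p = 0.12). AURKB, the kinase of the passenger complex, fell by 0.96 ± 0.11 in RDES (adjusted p = 1.9e-08). Its changes of 0.23 ± 0.11 in SKNMC, -0.05 ± 0.11 in TC32 and -0.14 ± 0.11 in TC71 were not called, although that in SKNMC was called without the first vehicle array (adjusted p = 0.023) or the second PlaB array (0.041) of the line. Under median centring PLK1 was at 0.01 in TC32 (adjusted p = 0.98) and 0.17 in TC71 (0.37), BIRC5 at 0.27 in TC32 (0.15), and TTK at 0.17 in SKNMC (0.47), 0.00 in TC32 and 0.39 in TC71 (0.074), none called, while PLK1 fell by 0.40 in RDES (0.023) and AURKB by 0.42 in TC32 (0.019). Left-out arrays also took calls away: that of PLK1 in TC32 without the second vehicle array (0.066) and in TC71 without the first (0.052), and that of TTK in TC32 without the second or the third vehicle or the first PlaB array (at most 0.15).

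AURKA, the Aurora kinase of centrosomes and spindle poles, rose in SKNMC and fell in TC71 and RDES. In SKNMC, AURKA read 9.70, 9.48 and 9.79 with PlaB and 9.27, 9.35 and 9.28 with vehicle, a change of 0.36 ± 0.11 (adjusted p = 0.0087). In TC32, AURKA read 9.04, 9.09 and 9.04 with PlaB, against 9.18, 9.40 and 9.18 with vehicle, a change of -0.19 ± 0.11 (adjusted p = 0.19). The PlaB arrays were above the vehicle arrays in SKNMC and below them in TC32, without overlap. In TC71, AURKA read 8.49, 8.41 and 8.36 with PlaB, against 9.07, 9.36 and 9.54 with vehicle, a change of -0.90 ± 0.11 (adjusted p = 1.1e-07), or 1.87-fold lower. In RDES, AURKA read 8.47, 8.37 and 8.32 with PlaB, against 8.95, 8.78 and 8.72 with vehicle, a change of -0.43 ± 0.11 (adjusted p = 0.0027). Both lines had all PlaB arrays below all vehicle arrays. Without the third PlaB array of SKNMC the rise there was 0.29 (adjusted p = 0.055), and under median centring it was 0.24 (0.17) while TC32 fell by 0.60 (0.00085). The second AURKA probe gave 0.51, 0.00, -0.67 and -0.29 in SKNMC, TC32, TC71 and RDES, with the same calls.

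TPX2, the spindle protein that activates Aurora A, rose in 3 lines and fell in RDES. In SKNMC, TPX2 read 9.18, 9.20 and 9.18 with PlaB and 8.37, 8.34 and 8.18 with vehicle, a change of 0.89 ± 0.10 (adjusted p = 1.1e-08). In TC71, TPX2 read 8.67, 8.77 and 8.66 with PlaB and 8.06, 8.37 and 8.35 with vehicle, a change of 0.44 ± 0.10 (adjusted p = 0.00073). In TC32, TPX2 read 8.55, 8.37 and 8.39 with PlaB and 8.07, 8.28 and 8.18 with vehicle, a change of 0.26 ± 0.10 (adjusted p = 0.044), which was -0.09 under median centring. PlaB was the higher without overlap in these lines. In RDES, TPX2 read 7.96, 7.90 and 8.01 with PlaB, against 8.47, 8.43 and 8.33 with vehicle, a change of -0.45 ± 0.10 (adjusted p = 0.00063), and here PlaB was the lower without overlap. The TC32 call was lost without the first or the third array of either treatment in that line (adjusted p at most 0.18), and that of TC71 under median centring (0.27, adjusted p = 0.14). The SKNMC response exceeded that of RDES by 1.34 ± 0.14 (adjusted p = 7.5e-08).

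NEK2, a kinase that separates centrosomes, had the largest mean rise of the 34 genes, 0.96 ± 0.06 (adjusted p = 1.8e-14). Its probe was dim, with intensities of 86 to 135 before normalization. In TC32 these overlapped, at 117, 103 and 119 with PlaB and 116, 104 and 102 with vehicle. In SKNMC, NEK2 read 6.31, 6.47 and 6.28 with PlaB and 5.09, 4.96 and 4.89 with vehicle, a change of 1.38 ± 0.12 (adjusted p = 9.2e-11). In TC32, NEK2 read 6.08, 6.0 and 6.32 with PlaB and 5.68, 5.34 and 5.60 with vehicle, a change of 0.59 ± 0.12 (adjusted p = 0.00024). Every PlaB array was above every vehicle array. In TC71, NEK2 read 6.12, 6.33 and 6.21 with PlaB and 5.27, 5.09 and 5.41 with vehicle, a change of 0.96 ± 0.12 (adjusted p = 1.9e-07). In RDES, NEK2 read 6.02, 6.22 and 6.06 with PlaB and 5.36, 5.32 and 4.91 with vehicle, a change of 0.90 ± 0.12 (adjusted p = 7e-07). Here too no arrays overlapped. Under median centring the TC32 change was 0.21 and not called (adjusted p = 0.27). A dimmer second probe rose in SKNMC by 0.30 and was not called in TC32, TC71 or RDES, at -0.05, 0.21 and 0.20.

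Among the APC/C and anaphase genes, UBE2C and PTTG1 rose in all 4 lines. In SKNMC, UBE2C, the enzyme that loads ubiquitin for the APC/C, read 11.33, 11.35 and 11.48 with PlaB and 9.86, 9.89 and 9.99 with vehicle, a change of 1.48 ± 0.11 (adjusted p = 3.1e-12) or 2.78-fold. In TC32, UBE2C read 10.75, 11.03 and 10.89 with PlaB and 10.08, 10.29 and 10.27 with vehicle, a change of 0.67 ± 0.11 (adjusted p = 1.4e-05). In TC71, UBE2C read 10.95, 11.09 and 11.08 with PlaB and 10.43, 10.41 and 10.27 with vehicle, a change of 0.67 ± 0.11 (adjusted p = 1.3e-05). The PlaB arrays stood above the vehicle arrays in each. In RDES, UBE2C read 10.69, 10.74 and 10.35 with PlaB and 10.11, 9.95 and 9.78 with vehicle, a change of 0.65 ± 0.11 (adjusted p = 2.6e-05), without overlap, but the second UBE2C probe had a change of -0.10 there (adjusted p = 0.58).

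PTTG1, or securin, the protein that holds separase in check, rose by 0.97 ± 0.10 in SKNMC, 0.77 ± 0.10 in TC71, 0.29 ± 0.10 in RDES and 0.24 ± 0.10 (adjusted p = 0.049) in TC32, where median centring gave -0.12. CDC20, the activator of the APC/C, rose by 0.55 ± 0.12 (adjusted p = 0.00019) in SKNMC and by 0.29 ± 0.12 (adjusted p = 0.049) in TC32, where median centring gave -0.04 and the arrays overlapped. CDC20 was not called in TC71, at -0.07 ± 0.12, or in RDES, at -0.12 ± 0.12. Both TC32 calls were marginal, and of the 24 fits that left out 1 array, 15 lost that of PTTG1 and 17 that of CDC20. The RDES call of PTTG1 was lost without the first or second array of either treatment (adjusted p at most 0.076) and under median centring (0.18, adjusted p = 0.24).

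Of the 6 kinesins, 5 rose and 1 fell in SKNMC, 3 rose and 2 fell in TC32 and in TC71, and 2 rose and 2 fell in RDES, and the F-test called a difference between lines for 5. The falls were 33.3% of the 6 in TC32, TC71 and RDES, beside 21.6%, 22.2% and 20.2% of all probes. KIF20A and KIF23, motors of the central spindle and cytokinesis, rose in all 4 lines, KIF20A by 0.96 ± 0.11 in SKNMC, 0.83 ± 0.11 in TC32, 0.65 ± 0.11 in TC71 and 0.37 ± 0.11 in RDES. KIF23 rose by 1.08 ± 0.10, 0.30 ± 0.10, 0.39 ± 0.10 and 0.34 ± 0.10 in the same order, but its second probe was called in no line, at 0.24, -0.10, 0.03 and -0.20. KIF2C, a microtubule depolymerase at centromeres, rose in SKNMC, TC32 and TC71 by 0.94 ± 0.10, 0.51 ± 0.10 and 0.54 ± 0.10 and was at 0.22 ± 0.10 (adjusted p = 0.074) in RDES. The arrays of the 2 treatments did not overlap for these 3 kinesins in any line. KIF18A, a motor that dampens chromosome movement, was near the detection limit, with its probe detected on all 6 SKNMC arrays and on 1 or 2 of 3 in the other groups. KIF18A thus passed the filter on dim probes through the SKNMC groups alone. It rose by 0.44 ± 0.17 (adjusted p = 0.026) in SKNMC and was called in no other line. With no filter on dim probes that rise was not called (adjusted p = 0.1). The call was also lost without the second or the third array of either treatment (adjusted p at most 0.16). The calls of KIF20A in RDES without the first vehicle or second PlaB array (at most 0.073) and of KIF23 in TC32 without the third vehicle array (0.13) were lost too. Under median centring KIF23 was at -0.07 in TC32, 0.14 in TC71 (adjusted p = 0.45) and 0.19 in RDES (0.34), KIF20A at 0.25 in RDES (0.21), KIF2C at 0.16 in TC32 (0.34) and KIF18A at 0.16 in SKNMC (0.47), none called.

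KIF11, the motor that pushes the spindle poles apart, fell in all 4 lines. In SKNMC, KIF11 read 6.37, 6.62 and 6.57 with PlaB and 7.39, 7.48 and 7.21 with vehicle, a change of -0.84 ± 0.12 (adjusted p = 1e-06). In TC32, KIF11 read 7.09, 7.29 and 7.04 with PlaB and 7.71, 7.82 and 7.83 with vehicle, a change of -0.65 ± 0.12 (adjusted p = 8.8e-05). All PlaB arrays were below all vehicle arrays. In TC71, KIF11 read 6.48, 6.16 and 6.23 with PlaB and 7.58, 7.80 and 7.50 with vehicle, a change of -1.34 ± 0.12 (adjusted p = 4e-10) or 2.53-fold lower. In RDES, KIF11 read 6.16, 5.89 and 6.23 with PlaB and 7.56, 7.70 and 7.29 with vehicle, a change of -1.42 ± 0.12 (adjusted p = 1.7e-10) or 2.68-fold lower. Again no arrays overlapped, and the fall in RDES was larger than in TC32 (difference of the responses TC32 minus RDES 0.78 ± 0.18 (adjusted p = 0.0037)).

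KIF14, a kinesin of the midbody, rose in SKNMC and fell in the other lines. In SKNMC, KIF14 read 7.23, 7.44 and 7.53 with PlaB and 6.99, 7.02 and 6.86 with vehicle, a change of 0.44 ± 0.10 (adjusted p = 0.00047). In RDES, KIF14 read 6.34, 6.33 and 6.19 with PlaB, against 6.59, 6.78 and 6.73 with vehicle, a change of -0.42 ± 0.10 (adjusted p = 0.0014). The PlaB arrays were the higher ones in SKNMC and the lower ones in RDES. In TC32, KIF14 read 6.98, 6.92 and 6.97 with PlaB, against 7.25, 7.18 and 7.20 with vehicle, a change of -0.25 ± 0.10 (adjusted p = 0.047). In TC71, KIF14 read 6.29, 6.07 and 6.19 with PlaB, against 6.39, 6.60 and 6.45 with vehicle, a change of -0.30 ± 0.10 (adjusted p = 0.019). PlaB was the lower in both, without overlap. The TC32 call was lost in 13 of the 24 fits that left out 1 array, with an adjusted p of at most 0.13 (without the first vehicle array), and that of TC71 at 0.1 without the second vehicle or the second PlaB array. The SKNMC rise was not called under median centring (0.11, adjusted p = 0.47). The SKNMC response exceeded those of TC32, TC71 and RDES by 0.70, 0.74 and 0.86, each called, and the F-test gave an adjusted p of 7e-05.

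The spindle-associated proteins held the gene with the widest spread of response among those called in opposite directions. NUSAP1 encodes a protein that bundles microtubules around chromosomes. Before any normalization the SKNMC arrays read intensities of 754, 732 and 799 for NUSAP1 with PlaB and 487, 425 and 464 with vehicle. The RDES arrays read 273, 287 and 359 for NUSAP1 with PlaB, against 462, 410 and 452 with vehicle. For NUSAP1 the order of the treatments was thus already reversed between these lines in the deposited values. The SKNMC intensities of CCNB1, CDC25C, AURKA and MKI67 overlapped between treatments before normalization. Those of MKI67 were 106, 95 and 102 with PlaB and 94, 103 and 102 with vehicle. The SKNMC intensities of CCNA2, TPX2, KIF14 and FOXM1 did not overlap. In SKNMC, NUSAP1 read 9.32, 9.46 and 9.61 with PlaB and 8.61, 8.38 and 8.42 with vehicle after normalization, a change of 1.00 ± 0.10 (adjusted p = 1e-09) or 2-fold higher. In RDES, NUSAP1 read 8.08, 8.04 and 8.07 with PlaB, against 8.55, 8.52 and 8.67 with vehicle, a change of -0.52 ± 0.10 (adjusted p = 0.00011) or 1.43-fold lower. No arrays overlapped in either line.

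In TC32, NUSAP1 read 8.73, 8.96 and 8.80 with PlaB, against 9.20, 9.15 and 9.11 with vehicle, a change of -0.32 ± 0.10 (adjusted p = 0.011). In TC71, NUSAP1 read 8.54, 8.58 and 8.57 with PlaB, against 8.59, 8.53 and 8.74 with vehicle, a change of -0.05 ± 0.10 (adjusted p = 0.72). The groups were apart in TC32 and overlapped in TC71. Without the first PlaB array of TC32 the fall there was -0.28 (adjusted p = 0.055). The SKNMC response exceeded that of RDES by 1.52 ± 0.14 (adjusted p = 6.8e-09) and that of TC32 by 1.32 ± 0.14 (adjusted p = 5.3e-08). A dimmer second probe gave 0.57 in SKNMC and -0.38 in TC32, both called, and 0.22 in TC71 and 0.00 in RDES, neither called.

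HMMR, a microtubule-associated protein of spindle poles, had the largest mean fall, -1.17 ± 0.06 (adjusted p = 1.6e-17). In SKNMC, HMMR read 5.35, 5.40 and 5.27 with PlaB and 6.63, 6.64 and 6.47 with vehicle, a change of -1.24 ± 0.11 (adjusted p = 1.1e-10). In TC32, HMMR read 7.24, 6.96 and 7.28 with PlaB and 8.13, 8.13 and 8.18 with vehicle, a change of -0.98 ± 0.11 (adjusted p = 2.6e-08). Each PlaB array was lower than each vehicle array. In TC71, HMMR read 6.12, 6.30 and 6.04 with PlaB and 7.24, 7.08 and 7.31 with vehicle, a change of -1.06 ± 0.11 (adjusted p = 6.1e-09). In RDES, HMMR read 6.28, 6.16 and 6.45 with PlaB and 7.87, 7.70 and 7.56 with vehicle, a change of -1.41 ± 0.11 (adjusted p = 2.8e-11). The groups were apart here too. The F-test did not call a difference between lines (adjusted p = 0.1).

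ASPM, which focuses microtubules at spindle poles, had the widest range of responses of all 34 genes, 1.55. In SKNMC, ASPM read 8.51, 8.89 and 8.61 with PlaB and 6.95, 7.27 and 7.44 with vehicle, a change of 1.45 ± 0.16 (adjusted p = 6e-09), or 2.73-fold. In TC71, ASPM read 7.30, 7.22 and 7.39 with PlaB and 6.75, 6.71 and 6.82 with vehicle, a change of 0.54 ± 0.16 (adjusted p = 0.0066). PlaB was the higher in both, without overlap. In TC32, ASPM read 7.71, 7.83 and 7.88 with PlaB and 7.97, 8.17 and 7.27 with vehicle, a change of 0.00 ± 0.16 (adjusted p = 0.99). In RDES, ASPM read 7.31, 7.04 and 6.80 with PlaB and 7.13, 7.06 and 7.27 with vehicle, a change of -0.10 ± 0.16 (adjusted p = 0.68). The arrays overlapped in these lines, and under median centring the TC71 change was 0.31 and not called (adjusted p = 0.2). DLGAP5, a kinetochore-fibre protein, had the other pattern: it fell by 0.90 ± 0.12 in TC32 and 1.01 ± 0.12 in RDES and was at -0.04 ± 0.12 in SKNMC and -0.15 ± 0.12 in TC71, neither called, although its second probe fell by 0.36 in TC71 (adjusted p = 0.011).

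Of the 4 cytokinesis genes, ECT2, the exchange factor that activates RhoA at the cell equator, was not tested: its probe was detected on 0 to 2 of the 3 arrays of each group. RACGAP1, the partner of KIF23 in centralspindlin, rose by 1.06 ± 0.10 in SKNMC, 0.31 ± 0.10 in TC71 and 0.24 ± 0.10 (adjusted p = 0.047) in RDES and was at 0.13 ± 0.10 (adjusted p = 0.33) in TC32. PRC1, which crosslinks the central spindle, rose by 0.80 ± 0.13 in SKNMC and was called in no other line. ANLN, a scaffold of the contractile ring, fell by 0.57 ± 0.14 in RDES. It was at 0.13 ± 0.14 in SKNMC, -0.28 ± 0.14 in TC32 and -0.25 ± 0.14 in TC71, none called. The ANLN probe was dim, with intensities of 75 to 111 before normalization. Of the fits that left out 1 array, 16 lost the RACGAP1 call in RDES (adjusted p at most 0.18), and that in TC71 was lost without the third vehicle array (0.052); a dim second probe was called in no line. ANLN was called down in TC32 without the third vehicle array (0.0066) and in TC71 without the second PlaB array (0.04). Under median centring RACGAP1 was at 0.13 in TC71 (adjusted p = 0.42) and 0.14 in RDES (0.41), neither called, and ANLN fell by 0.60 in TC32 (0.0036) and by 0.43 in TC71 (0.036).

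FOXM1, the transcription factor that drives late cell cycle genes, was called in the lines at the ends of the range. In SKNMC, FOXM1 read 7.57, 7.63 and 7.56 with PlaB and 6.77, 6.67 and 6.65 with vehicle, a change of 0.88 ± 0.11 (adjusted p = 8.8e-08) or 1.85-fold. In RDES, FOXM1 read 6.29, 6.33 and 6.27 with PlaB, against 6.59, 6.63 and 6.60 with vehicle, a change of -0.31 ± 0.11 (adjusted p = 0.027). Neither line's arrays overlapped, and PlaB was the higher in SKNMC and the lower in RDES. In TC32, FOXM1 read 6.73, 6.54 and 6.70 with PlaB and 6.50, 6.63 and 7.02 with vehicle, a change of -0.06 ± 0.11 (adjusted p = 0.75). In TC71, FOXM1 read 5.95, 6.03 and 6.23 with PlaB and 5.76, 5.78 and 6.0 with vehicle, a change of 0.23 ± 0.11 (adjusted p = 0.11). The arrays overlapped in both. Its second probe rose in SKNMC by 0.89 and in TC71 by 0.31 and was at -0.19 in RDES (adjusted p = 0.24), and the fall in RDES on the first probe was lost without any 1 array of that line but the second PlaB array (adjusted p at most 0.07). Under median centring FOXM1 also fell in TC32, by 0.45 (adjusted p = 0.006).

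MKI67, the proliferation marker Ki-67 that coats mitotic chromosomes, rose in SKNMC and was lower in each of the others. Its probe was dim, with intensities of 81 to 106 before normalization. In SKNMC, MKI67 read 5.74, 5.52 and 5.81 with PlaB and 5.10, 5.34 and 5.20 with vehicle, a change of 0.47 ± 0.10 (adjusted p = 0.00018). In TC32, MKI67 read 5.11, 5.06 and 5.01 with PlaB, against 5.28, 5.22 and 5.42 with vehicle, a change of -0.25 ± 0.10 (adjusted p = 0.048). These groups did not overlap, and the order of the treatments was reversed between them. In TC71, MKI67 read 4.74, 4.91 and 4.83 with PlaB, against 4.99, 5.07 and 5.07 with vehicle, a change of -0.22 ± 0.10 (adjusted p = 0.079). In RDES, MKI67 read 4.90, 4.86 and 4.84 with PlaB, against 5.06, 5.11 and 4.99 with vehicle, a change of -0.18 ± 0.10 (adjusted p = 0.16). PlaB was the lower in both without overlap, though neither was called. The TC32 call stood just under the threshold and was lost in 19 of the 24 fits that left out 1 array, with an adjusted p of at most 0.19. Under median centring the SKNMC change was 0.08 and not called (adjusted p = 0.62), while MKI67 fell by 0.40 in TC71 (0.0054) and by 0.31 in RDES (0.036).

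TOP2A, the topoisomerase that untangles sister chromatids, fell in all 4 lines. In SKNMC, TOP2A read 10.47, 10.25 and 10.58 with PlaB and 10.95, 11.03 and 10.68 with vehicle, a change of -0.46 ± 0.11 (adjusted p = 0.00067). In TC32, TOP2A read 9.91, 10.03 and 9.81 with PlaB and 10.36, 10.33 and 10.53 with vehicle, a change of -0.49 ± 0.11 (adjusted p = 0.00052). All PlaB arrays were the lower ones. In TC71, TOP2A read 8.43, 8.63 and 8.48 with PlaB and 9.65, 9.52 and 9.57 with vehicle, a change of -1.06 ± 0.11 (adjusted p = 2.6e-09) or 2.09-fold lower. In RDES, TOP2A read 8.59, 8.65 and 8.52 with PlaB and 9.76, 9.83 and 9.79 with vehicle, a change of -1.21 ± 0.11 (adjusted p = 3e-10) or 2.31-fold lower. The groups were again apart, and the fall in RDES exceeded that in SKNMC (SKNMC minus RDES 0.75 ± 0.15 (adjusted p = 6e-04)). With arrays centred on the probes detected on all of them, the SKNMC change was -0.17 and not called (adjusted p = 0.22).

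**Figure D3:**
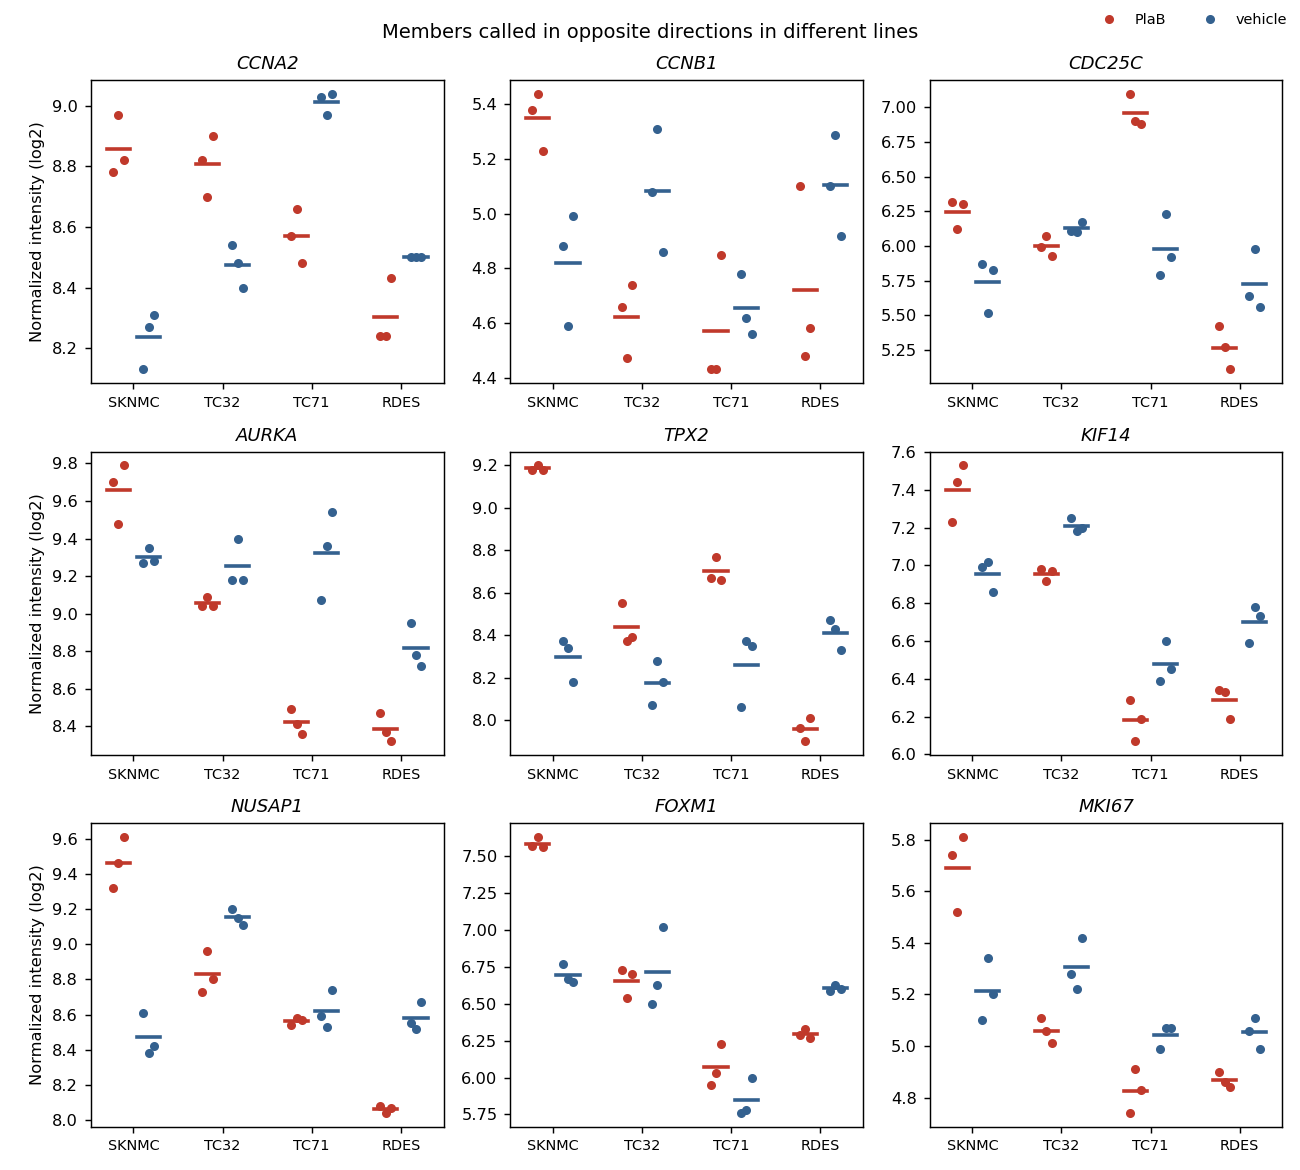
Normalized log2 intensity (y axis, its own scale in each panel) of the 9 genes called up in one line and down in another, for each of the 3 arrays (points) of each line with PlaB (red) and vehicle (blue), with bars at the group means. Red stands above blue in SKNMC in all 9 panels, and below blue in RDES in all 9, though for CCNB1 a red point in RDES lies among the blue ones.

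These 9 genes, CCNA2, CCNB1, CDC25C, AURKA, TPX2, KIF14, NUSAP1, FOXM1 and MKI67, were the ones called up in at least 1 line and down in at least 1 other with a called F-test, which 4.48% of all tested probes met. All 9 rose in SKNMC. On the other side, 7 fell in RDES (CCNB1, CDC25C, AURKA, TPX2, KIF14, NUSAP1 and FOXM1), 4 fell in TC32 (CCNB1, KIF14, NUSAP1 and MKI67) and 3 fell in TC71 (CCNA2, AURKA and KIF14). CCNA2, CDC25C, TPX2 and NUSAP1 met the rule under every alternative that fitted all 4 lines together, CDC25C with the disagreement of its probes given above. The count was 6 under median centring, which lost CCNB1, AURKA, KIF14 and MKI67 and added PLK1, and ranged from 7 to 10 when 1 array was left out.

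The median log2 fold changes of the 9 genes, given as a description since the calls chose them, were 0.53 in SKNMC, -0.19 in TC32, -0.08 in TC71 and -0.42 in RDES. The other 25 genes had medians of 0.80, 0.15, 0.31 and -0.10 in the same order. Among those 25, 16 rose and 5 fell in SKNMC, beside 24.9% and 28% of all tested probes. In RDES 7 of them rose and 8 fell, beside 19.5% and 20.2%. The same calls set these 25 apart, so their values are a description too.

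In the vehicle arrays the lines lay closer together than in the PlaB arrays. The standard deviation of the 4 line means of a gene had a median of 0.47 with PlaB and 0.28 with vehicle, against 0.30 and 0.27 over all tested probes, and it was larger with PlaB for 32 of the 34 genes (94.1%, against 56% of all probes). The level differed between lines with PlaB for 33 genes (F-test, beside 77.2% of all tested probes) and with vehicle for 30 (beside 73.4%). With PlaB the highest level was in SKNMC for 26 genes, in TC32 for 5, in TC71 for 3 and in RDES for 0, while with vehicle it was in SKNMC for 5, in TC32 for 19, in TC71 for 7 and in RDES for 3. The median normalized log2 level of the 34 genes was 8.45 with PlaB and 7.62 with vehicle in SKNMC, 7.90 and 7.98 in TC32, 7.72 and 7.70 in TC71, and 7.09 and 7.66 in RDES.

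**Figure D4:**
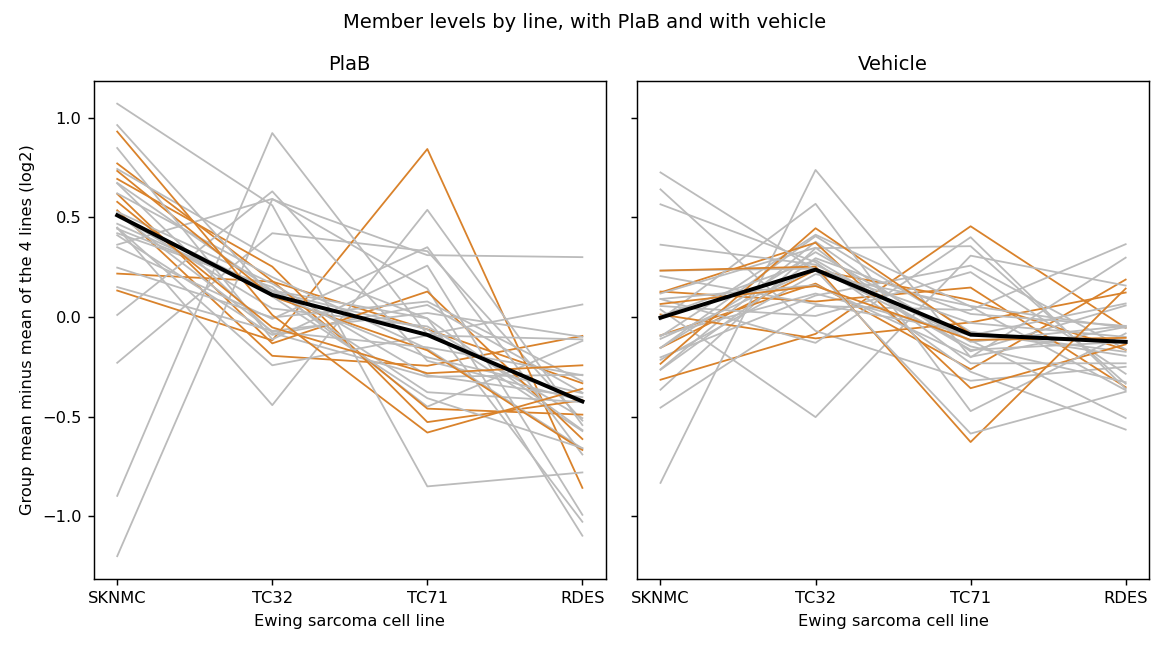
Mean log2 level of each of the 34 genes in a line minus its mean over the 4 lines (y axis), with PlaB (left panel) and with vehicle (right panel); orange lines are the 9 genes called in opposite directions, grey lines the other 25 and the black line the median. With PlaB the black line falls step by step across SKNMC, TC32, TC71 and RDES, while with vehicle it is highest in TC32 and flatter.

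The promoters of these genes are known for the elements that tie them to G2 and mitosis, and RefSeq sequences (GRCh38.p14, from 250 bases before to 50 after the first listed start of each gene) were matched for 28 of the 35 genes. TPX2, AURKA, UBE2C, RACGAP1, FOXM1, BIRC5 and TTK were not matched. On either strand, the CHR letters TTTGAA stood in 19 of the 28 windows (67.9%, against 15.4% of 27305 windows in the table), the form TTTAAA in 11 (39.3% against 12.3%) and either form in 23 (82.1% against 24.3%). CCAAT stood in 24 (85.7% against 35.7%), at least 2 copies of it in 15 (53.6% against 11.3%), and a CHR form together with CCAAT in 21 (75.0% against 9.49%). TTTAAA reads the same on both strands, and CCAAT copies on opposite strands may overlap. CDC25B and CDC25C held neither element in this window, but 6 of the 28 genes have several listed starts, these among them with 4 each, and over all starts both held both elements. With every listed start counted, a CHR form stood in 25 of the 28 genes and CCAAT in 26. The shares over all windows above use the first start alone. They were not computed over every start, so these 2 counts have no share to stand beside. A match of letters is a description and does not show that a factor binds there.

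The 150 bases before the start are printed below for 3 genes called in opposite directions (CCNB1, NUSAP1 and MKI67), 2 that rose in all 4 lines (CCNB2 and PTTG1) and 2 that fell in all 4 (HMMR and KIF11), to set promoters of genes that moved differently side by side. They are written 5′ to 3′ on the strand of the gene, and capitals mark CHR letters and CCAAT (or ATTGG where it lies on the other strand). CCNB1 is from chr5:69167000-69167149 (plus strand), NUSAP1 from chr15:41332731-41332880 (plus), MKI67 from chr10:128126424-128126573 (minus), CCNB2 from chr15:59104996-59105145 (plus), PTTG1 from chr5:160421705-160421854 (plus), HMMR from chr5:163460482-163460631 (plus) and KIF11 from chr10:92592980-92593129 (plus).
CCNB1: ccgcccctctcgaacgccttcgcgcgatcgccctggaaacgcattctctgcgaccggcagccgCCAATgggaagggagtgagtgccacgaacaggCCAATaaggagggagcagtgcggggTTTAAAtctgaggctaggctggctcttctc
NUSAP1: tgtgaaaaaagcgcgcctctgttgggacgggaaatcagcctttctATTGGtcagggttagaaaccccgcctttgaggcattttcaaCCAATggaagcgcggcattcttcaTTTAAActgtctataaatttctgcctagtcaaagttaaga
MKI67: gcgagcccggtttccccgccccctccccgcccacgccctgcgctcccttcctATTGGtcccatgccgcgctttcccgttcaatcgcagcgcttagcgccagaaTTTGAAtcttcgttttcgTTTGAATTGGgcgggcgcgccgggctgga
CCNB2: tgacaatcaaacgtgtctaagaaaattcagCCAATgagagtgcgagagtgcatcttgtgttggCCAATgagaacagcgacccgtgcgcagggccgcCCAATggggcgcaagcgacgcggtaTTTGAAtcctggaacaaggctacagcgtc
PTTG1: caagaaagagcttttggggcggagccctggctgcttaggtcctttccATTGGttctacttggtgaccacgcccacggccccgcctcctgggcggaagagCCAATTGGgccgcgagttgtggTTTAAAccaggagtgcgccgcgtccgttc
HMMR: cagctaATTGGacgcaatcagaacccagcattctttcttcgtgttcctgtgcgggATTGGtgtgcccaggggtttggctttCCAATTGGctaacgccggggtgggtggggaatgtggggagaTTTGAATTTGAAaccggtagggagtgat
KIF11: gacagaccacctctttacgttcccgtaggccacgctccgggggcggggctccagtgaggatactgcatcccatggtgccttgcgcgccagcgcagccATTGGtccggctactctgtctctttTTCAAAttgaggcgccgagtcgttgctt

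In the printed stretches a CHR form begins at -30 from the transcription start in CCNB1, -40 in NUSAP1, -29 in CCNB2, -29 in PTTG1 and -28 in KIF11, where it lies on the other strand. MKI67 holds it at -47 and -29, and HMMR at -28 and -22, as adjoining copies. CCAAT copies overlap on opposite strands in PTTG1 and HMMR, and in MKI67 a CHR and a CCAAT share 1 base. CCNB1 and CCNB2 both hold a CHR form after CCAAT copies. Among the matched genes a CHR form stood in 4 of the 6 called in opposite directions, 4 of the 5 that rose in all lines, 3 of the 4 that fell in all lines and 11 of the other 12 tested genes, and CCAAT in 5, 5, 3 and 10 of them. With every listed start counted, the numbers were 5, 4, 4 and 11 for a CHR form and 6, 5, 4 and 10 for CCAAT. The part of these elements in the direction of the responses was not tested. AURKA, TPX2 and FOXM1, also called in opposite directions, had no matched window.

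**Figure D5:**
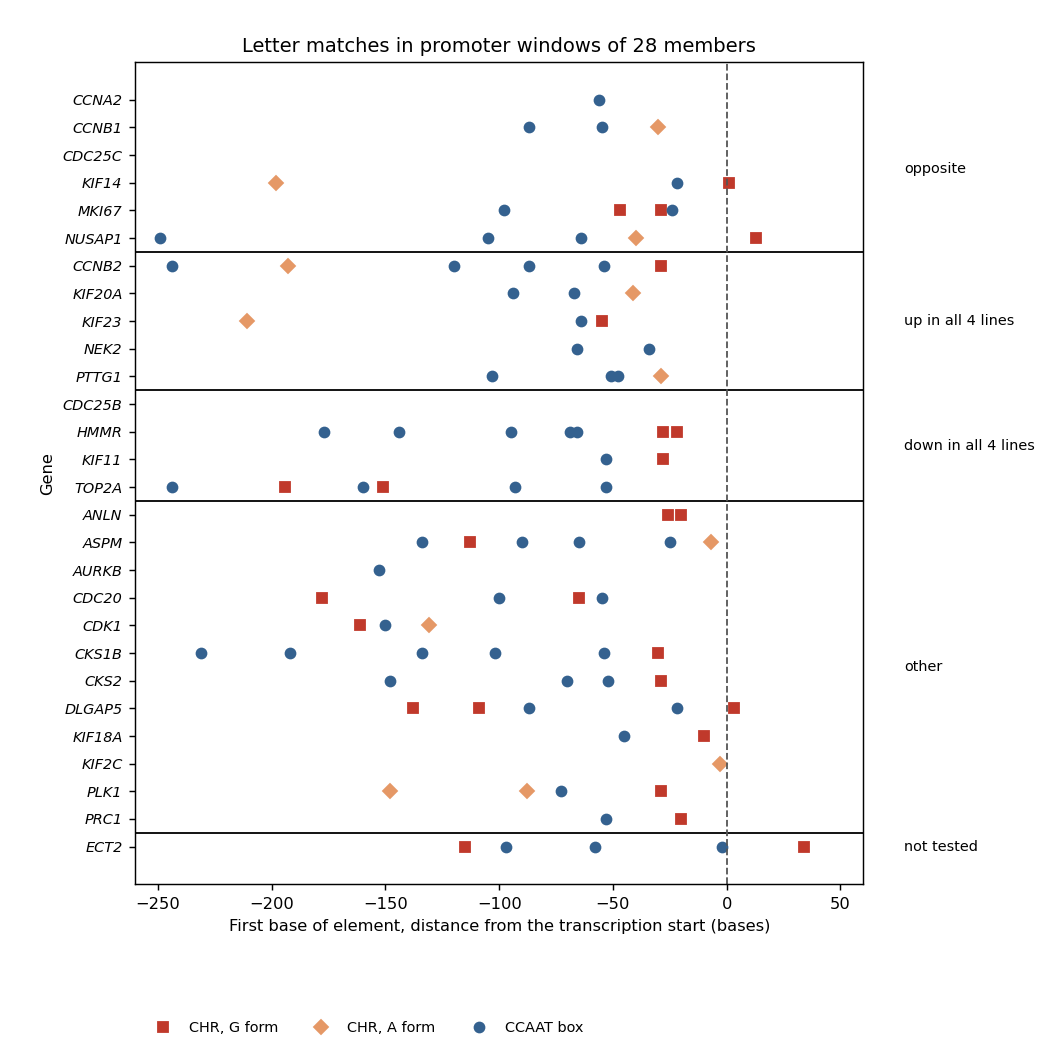
Position of CHR letters (red squares, TTTGAA; orange diamonds, TTTAAA) and of CCAAT (blue circles) in the promoter windows of the 28 matched genes (down the page, by direction of response), as distance of the first base from the transcription start (x axis, bases; dashed line at the start). Many windows hold blue circles upstream of a red or orange mark that lies closer to the start, in each of the classes.

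Other genes of the pathway came from 5 lists of 97 genes, of which 89 were measured. In SKNMC 36 rose and 17 fell (40.4% and 19.1%, beside 24.9% and 28% of all probes), and in RDES 9 rose and 40 fell (10.1% and 44.9%, beside 19.5% and 20.2%). In TC32 20 rose and 19 fell (22.5% and 21.3%, beside 19.3% and 21.6%), and in TC71 21 rose and 25 fell (23.6% and 28.1%, beside 21.4% and 22.2%), so the counts of TC32 and the rises of TC71 were near those of all probes. The F-test called 58 of the 89 (65.2%, beside 42.4%), and 16 were called in opposite directions (18%, beside 4.48%). Under median centring the counts were 24 up and 29 down in SKNMC, 7 and 41 in TC32, 8 and 31 in TC71, and 4 and 43 in RDES, so that in SKNMC more fell than rose.

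Among the regulators of mitotic entry and of the gene programme, 12 of 22 rose and 3 fell in SKNMC (54.5% and 13.6%, beside 24.9% and 28% of all probes). In RDES 2 of them rose and 8 fell (9.09% and 36.4%, beside 19.5% and 20.2%). In the mean of the lines GTSE1, a microtubule protein of G2 that restrains p53, rose by 1.05 ± 0.07 (adjusted p = 5.7e-15), PKMYT1, a kinase that holds CDK1 inactive, fell by 0.81 ± 0.06 (1.4e-13), and E2F7, a repressor of E2F targets, fell by 0.76 ± 0.07 (1e-10). Of 19 kinetochore and checkpoint genes, 8 rose and 4 fell in SKNMC (42.1% and 21.1%, beside 24.9% and 28%). In RDES 2 of them rose and 10 fell (10.5% and 52.6%, beside 19.5% and 20.2%). INCENP, the scaffold that holds AURKB and BIRC5 in the passenger complex, rose by 1.49 ± 0.06 (7.7e-20), while the kinetochore genes KNTC1 and SPC24 fell by 1.10 ± 0.07 (2.1e-15) and 1.02 ± 0.06 (1.4e-15). INCENP and AURKB, which act in the same complex, thus had mean changes of 1.49 and -0.23.

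Of 15 APC/C genes, 2 rose and 3 fell in SKNMC (13.3% and 20%, below the shares of all probes) and 3 rose and 4 fell in RDES (20% and 26.7%, near them). The cullin subunit ANAPC2 rose by 0.62 ± 0.07 in the mean of the lines (adjusted p = 8.1e-09), the subunit CDC23 by 0.47 ± 0.05 (2.5e-09), and ANAPC15 fell by 0.47 ± 0.06 (1.1e-07). In SKNMC neither CDC23, at 0.17 ± 0.10, nor ANAPC15, at -0.21 ± 0.12, was called, and the F-test called ANAPC2 and CDC23 but not ANAPC15. Of 14 condensin and cohesin genes, 5 rose and 3 fell in SKNMC (35.7% and 21.4%, beside 24.9% and 28% of all probes). In RDES 2 of them rose and 6 fell (14.3% and 42.9%, beside 19.5% and 20.2%). SMC1A of cohesin rose by 1.02 ± 0.06 (1.5e-15), while SMC4 and NCAPG2 of condensin fell by 0.90 ± 0.05 (2.3e-15) and 0.84 ± 0.07 (2.7e-12). SMC4 was at 0.00 ± 0.11 in SKNMC (adjusted p = 0.98) and fell by 1.30 in TC32, 1.07 in TC71 and 1.24 in RDES (F-test 1.3e-07), while NCAPG2 fell in all 4 lines. Of 19 other spindle genes, 9 rose and 4 fell in SKNMC (47.4% and 21.1%, beside 24.9% and 28%). In RDES 0 of them rose and 12 fell (63.2% down, beside 19.5% of all probes up and 20.2% down). TUBG1, the gamma-tubulin that nucleates microtubules, fell by 1.55 ± 0.06 (5.7e-20), KNSTRN, a protein of spindle and kinetochores, fell by 1.21 ± 0.07 (3.7e-16), and TACC3, which stabilises spindle fibres, rose by 0.52 ± 0.08 (6e-07). TACC3 rose by 1.34 ± 0.15 in SKNMC and 0.62 ± 0.15 in TC71, with 0.04 ± 0.15 in TC32 and 0.10 ± 0.15 in RDES, neither called (F-test 4.9e-05).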

How the data were processed

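Total RNA of 24 samples in 8 groups was measured on Illumina beadchips. The deposited table holds, per the file headers, a probe intensity per array, not normalized, and a detection p-value for each intensity. The deposited series matrix holds log2 values of the authors. Upstream, GenomeStudio, lumi and R 3.0.2 are listed with no step given, per the submitters' processing notes. At a tolerance of 0.03 the matrix matched quantile-normalized log2 intensities for 99.996% of probes in TC32 but 36.358% in SKNMC, 75.201% in TC71 and 36.364% in RDES, and it was used for TC32 alone, as a check. In that limma fit of TC32, 29 genes kept their call or its absence. CCNB1 (-0.14, adjusted p = 0.068), MKI67 (-0.09, 0.19) and CDC20 (0.30, 0.06) lost their calls there. CKS2 (0.32, 0.034) and AURKA (-0.19, 0.049) gained one.

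Background was removed by normexp, fitted from the detection p-values (offset 16), in limma 3.58.1 under R 4.3.3, followed by log2 and quantile normalization. Probes entered the tests (17557 of 47323) when some group had detection p below 0.05 on each of its 3 arrays. Symbols came from the platform annotation: 30112 probes had 1, 8 had several and 17203 had none, and of 30073 Entrez identifiers looked up, 0 symbols changed. A single limma model of the 8 group means held all 24 arrays (16 residual and 13.7 prior degrees of freedom). Adjusted p-values are Benjamini-Hochberg values over the 17557 probes, called below 0.05. A gene was read from its brightest tested probe; 17 of the genes have 2 or 3 probes.

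The genes, the pathway and marker lists and the tests were chosen with earlier results of these data known. All 35 genes are named. Values per array are given for genes called in opposite directions, the 4 largest mean rises and falls and the 6 widest ranges of response, and pathway genes are named by the 3 largest mean changes of each list. The fit was tested on simulated data. Alternatives were other normalizations, offsets, filters and weights, the mean of all probes of a gene, the replicate number as a block, each line alone, and leaving out each array. Same-numbered samples of a line did not deviate together: the 12 correlations of same-numbered deviations lay between -0.04 and 0.05. Such values cannot tell whether the samples were paired when grown, which the labels leave unsaid. The number of arrays limits the precision. Arrays of a group correlated at 0.987 to 0.994. The labels do not tell which chip held which array.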

Additional observations from a re-analysis of the deposited data

Results flagged for a closer look

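For 30 of the 34 measured genes the response to PlaB differed between the lines by the limma F-test, and the distance from the lowest to the highest log2 response of a gene is given here. Among the genes called in opposite directions it was 1.52 for NUSAP1, 1.44 for CDC25C, 1.34 for TPX2, 1.26 for AURKA, 1.20 for FOXM1, 1.06 for CCNA2, 0.99 for CCNB1, 0.86 for KIF14 and 0.72 for MKI67. Among the 6 genes that rose in every line it was 0.96 for CCNB2, 0.83 for UBE2C, 0.78 for NEK2, 0.77 for KIF23, 0.73 for PTTG1 and 0.59 for KIF20A. Of those that fell in every line, KIF11 spanned 0.78 and TOP2A 0.75. The others were ASPM at 1.55, CKS1B at 1.29, PLK1 at 1.24, AURKB at 1.19, BIRC5 at 1.11, CKS2 at 1.03, DLGAP5 at 0.97, RACGAP1 at 0.94, PRC1 at 0.80, TTK at 0.74, KIF2C at 0.72, ANLN at 0.70 and CDC20 at 0.67. ASPM and NUSAP1 spanned most, and in both the highest response was that of SKNMC and the lowest that of RDES.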

How the results depend on the processing

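Of 6449 recomputed values of single genes, 6181 kept their call or its absence, 213 lost their call and 45 gained one. Another 10 changed sign and were called in the main or the alternative fit. A sign that turned without a call in either fit was counted as kept. CDK1 in SKNMC, for example, went from 0.13 to -0.25 under median centring. Of the 10, median centring turned CCNA2 (-0.02), TPX2 (-0.09), CDC20 (-0.04), PTTG1 (-0.12) and KIF23 (-0.07) in TC32. It also turned CDC25C (-0.08), NUSAP1 (-0.18) and FOXM1 (-0.09) in the mean of the lines. The mean of all probes turned CDC25C in SKNMC (-0.01) and in the mean (-0.22). Counts of genes moved by over 1.5 times under median centring: TC32 2 up and 15 down, TC71 9 up, RDES 3 up, the mean 11 up, TC32 above TC71 0, TC32 above RDES 1, TC71 above RDES 6 and SKNMC below TC71 2. The number that rose in all 4 lines was 1 there. Centring on detected probes gave 8 up in TC32. SKNMC below TC71 was 2 and TC71 below RDES 1 with no background correction, with offset 50 and with only probes detected on all 24 arrays; cyclic loess gave 1 for TC71 below RDES, and no filter gave 0 for SKNMC below RDES. Leaving out 1 array gave 4 to 8 up in RDES, 1 to 2 for SKNMC below TC71, 0 to 1 for SKNMC below RDES and 0 to 1 for TC71 below RDES. The cause of these moves was not tested. The replicate block gave 8 genes called in opposite directions, MKI67 being lost, and took the call from 8 of 185 values of genes. What same-numbered samples share beyond the number is left unsaid by the labels. In the count of opposite genes, the deposited matrix and fits of single lines could not be used.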
